A study of Oryzias latipes with 6 samples.

Results

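Cluster 13 is a small group of nuclei from the brain of the Japanese medaka (*Oryzias latipes*), as the authors' own clustering defined it. It held 69 of the 7512 nuclei in 14 clusters, 0.919% of all. The members are the nuclei behind the authors' deposited table for that cluster, and the numbers of nuclei were worked out from the tables themselves. The assay was single-nucleus RNA-seq in droplets, in which each captured transcript counts as 1 unique molecular identifier (UMI). Whole brains came from 6 male F1 fish aged 6 months, with 1 library per fish. The parents of the 3 control-lineage fish had spent 21 days in solvent. Those of the 3 BaP-lineage fish had spent the same time in water with benzo[a]pyrene (BaP) at 1 µg/L, a combustion product that activates the aryl hydrocarbon receptor. All 6 F1 fish grew up in clean water, so the question put to each cluster is whether parental exposure left a difference in the offspring. The labels name no strain and give 1 sequencing batch for all libraries. They state a target of 8000 nuclei per library, against which the 7512 nuclei of all 6 libraries together can be set.

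The deposited tables give 1 log2 fold change, 1 mean level and 1 p-value per gene and cluster, with no value for a single fish. Cluster 13 was made of 14 control-lineage and 55 BaP-lineage nuclei. Control-lineage fish gave 20.3% of its nuclei, against 32.3% of all nuclei and 10.0% to 51.9% in the other clusters. Put the other way, it held 0.576% of control-lineage nuclei and 1.08% of BaP-lineage nuclei. How these nuclei were spread over the 3 fish of each lineage is not known here, so no test of the share was made. The mean depth was 1399 UMIs per nucleus, within the 684 to 1905 of the other clusters, and was 1308 in control-lineage and 1422 in BaP-lineage nuclei. Of 24365 genes, 10888 were detected, and 1 UMI in the whole cluster was worth 9.13 CPM (counts scaled to a common total for every cluster).

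The genes that lead this cluster belong to families with well-known roles. Fetuin (ahsg2), apolipoproteins A-I and A-II (apoa1b, apoa2), transferrin (tfa) and retinol-binding protein (rbp4) are secreted carriers of blood plasma, made chiefly by the liver. In the brain, transferrin and retinol-binding protein are also made at its borders, by the choroid plexus and the leptomeninges. Fibroblasts of the meninges are known from mouse and human for matrix genes and for a set of membrane transporters, among them SLC6A13 (a GABA and taurine transporter), slc13a4 (a sulfate transporter), slc22a6-type organic anion carriers and slc47a1 (an exporter of organic cations).

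Of the plasma carriers, ahsg2, apoa2, tfa and apoa1b were the 4 highest named transcripts of cluster 13 that are not mitochondrially encoded. The level of ahsg2 was 12793 CPM, from 1401 UMIs (95% counting interval 1329 to 1476). In the other 13 clusters ahsg2 lay between 22.7 CPM (cluster 12) and 334 CPM (cluster 8), with a median of 79.5 CPM. All of them were far below cluster 13, whose level was 122 times their mean. The level of apoa2 was 9901 CPM, 89.7 times the mean of the others, whose highest was 283 CPM in cluster 7. Transferrin, tfa, stood at 8380 CPM, 79.5 times the mean of the others, with 312 CPM in cluster 7 as the next highest. For apoa1b the level was 7328 CPM, 106 times the mean of the others, and the next highest was 157 CPM in cluster 8. The retinol carrier rbp4 reached 3216 CPM, 72.3 times the mean of the others, and its 251 CPM in cluster 7 was the closest approach. Together these 5 genes made up 4.16% of the UMIs of cluster 13 and between 0.0155% and 0.126% (cluster 7) of those of the others, with a median of 0.0320%. Counting intervals cover counting error only, and a cluster set against the rest is a description, since the nuclei were clustered on these genes.

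All 13 other clusters carried a low level of the same 5 genes, and their proportions were set beside those in cluster 13. Relative to ahsg2, apoa1b stood at 0.573 in cluster 13 and at a median of 0.656 in the others (0.456 to 3.33). For apoa2 the ratio was 0.774, against a median of 1.00 (0.779 to 4.16). For tfa it was 0.655, against 1.01 (0.576 to 3.85), and for rbp4 0.251, against 0.322 (0.181 to 1.11). Cluster 13 lay inside the range of the others for apoa1b, tfa and rbp4, and just below it for apoa2. For each gene it lay below their median. The upper ends for apoa1b, apoa2 and tfa came from cluster 12, where ahsg2 was only 22.7 CPM in 88 nuclei, so the ranges are loose. The part that free RNA takes in the low level of the other clusters was not tested.

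The genes that stood highest above the other clusters were transporters and a complement gene. Symbols at 50 CPM or more in cluster 13 were ordered by their ratio to the mean of the other clusters, and the 25 at the top had ratios of 42.5 to 239. The first was slc5a5, whose mammalian counterpart is the sodium-iodide symporter, at 2019 CPM from 221 UMIs, against at most 24.2 CPM elsewhere (cluster 7). Next came the complement component gene c7b at 1720 CPM, 203 times the mean of the others. SLC6A13 followed at 982 CPM, 170 times the mean, and slc22a6l, of the organic anion transporter family, at 130 CPM, 143 times the mean. The next-highest cluster reached between 1.20% and 14.3% of the level in cluster 13 for these 25 genes, with a median of 7.57%. That cluster was number 7 for 15 of the 25 genes, 9 for 4, 8 for 3, 6 for 2 and 12 for 1. A further 9 genes that have no symbol ranked among them.

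**Figure D1:**
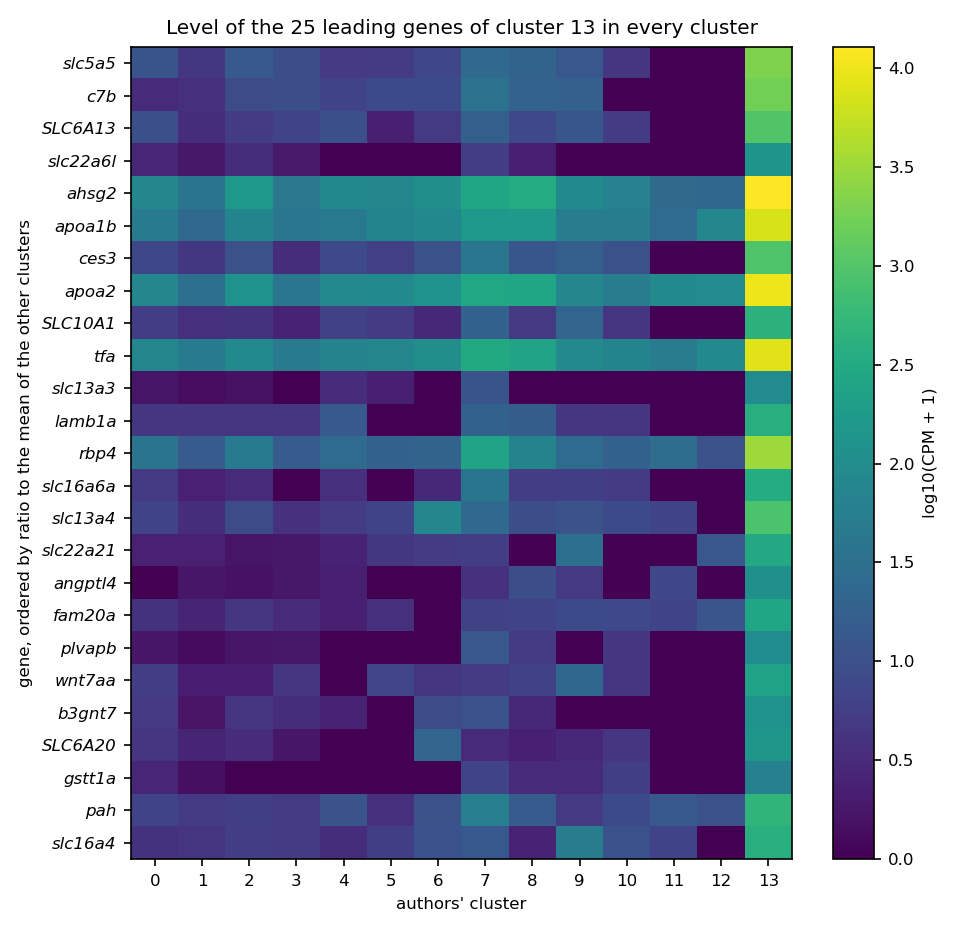
Level of the 25 leading genes (rows, ordered by ratio to the mean of the other clusters) in each of the authors' 14 clusters (columns), as log10(CPM + 1) by colour. The column of cluster 13 is the brightest in every row, and the rows of ahsg2, apoa1b, apoa2, tfa and rbp4 also show a low level in all other clusters, as does that of pah.

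Solute carriers made up 10 of these 25 genes. The sodium-dependent sulfate transporter slc13a4 stood at 888 CPM, 70.2 times the mean of the others, and cluster 6 was next with 78.7 CPM. SLC10A1, known as a bile acid carrier of hepatocytes, stood at 433 CPM, 81.1 times the mean of the others. The monocarboxylate carrier family gave slc16a6a at 351 CPM and slc16a4 at 376 CPM. The dicarboxylate carrier slc13a3 reached 93.4 CPM, slc22a21 reached 295 CPM and the amino acid carrier SLC6A20 reached 149 CPM. Of 337 solute carrier symbols in the tables, 172 were detected and 136 reached 10 CPM. A gene is called enriched here when it stood at 10 CPM or more and at least 2 times the mean of the other clusters. By that rule 50 of the 136 were enriched (36.8%), beside 1615 of the 8045 genes of any kind at 10 CPM or more (20.1%). Solute carriers gave 19 of the 271 genes at 10 times the mean of the others or more, and 10 of the 52 at 50 times or more. The solute carriers were grouped after their values were seen, so these shares are a description.

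The other leading genes were of mixed function. ces3 (957 CPM, 103 times the mean of the others) is a carboxylesterase, pah (483 CPM, 43.5 times) is phenylalanine hydroxylase and gstt1a (59.7 CPM) is a glutathione transferase. The laminin chain lamb1a stood at 391 CPM, 75.9 times the mean of the others. angptl4, a secreted inhibitor of lipoprotein lipase, reached 115 CPM. wnt7aa, a Wnt ligand, reached 229 CPM, and plvapb, known from the diaphragms of fenestrated endothelium, reached 98.9 CPM. The pseudokinase gene fam20a stood at 255 CPM and b3gnt7, a glycosyltransferase gene, at 128 CPM.

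Other high transcripts were also high in some of the other clusters. Among the 10 highest symbols that are not mitochondrially encoded, hbbe2, a haemoglobin beta chain, reached 6493 CPM, but cluster 8 had 43300 CPM. The transcription factor gene TCF4 stood at 3906 CPM, 4.24 times the mean of the others. PNPLA6, which encodes a phospholipase, stood at 2258 CPM, 0.848 times the mean of the others. The 13 mitochondrially encoded genes took 21.5% of the UMIs, within the 8.83% to 36.4% of the other clusters, 3 of which were higher.

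Secreted plasma proteins were present as a few very high genes and not as a full set. Of 40 listed genes in the tables, 10 were detected and 30 were at 0, which allows each of those up to 3 UMIs, or 27.4 CPM. All of the 9 at 10 CPM or more were enriched, beside 20.1% of all genes at that level. The summed level was 41970 CPM, against 261 to 1922 CPM in the others. Besides the 5 leading genes, apoeb (apolipoprotein E) stood at 247 CPM, below its 490 CPM in cluster 7. The level of cfd (complement factor D) was 64.4 CPM, also below that in cluster 7 (70.4 CPM). cp (ceruloplasmin, a copper-binding ferroxidase) and f2 (prothrombin) each stood at 16.3 CPM, from 1.78 UMIs. The fibrinogen chains fga and fgb, the kininogen kng1, the haemopexins hpxa and hpxb, apobb.1 and apoa4a were among the genes at 0. Their absence at this depth held also for the regulators of hepatocytes: hnf4a, foxa3, cebpa and nr1h4 had no UMI, and neither did the liver fatty acid binding gene fabp10a. Of 20 hepatocyte markers 7 were detected and 3 enriched. Their sum of 1064 CPM, against 55.5 to 333 CPM in the others, came mostly from pah and SLC10A1.

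Markers of fibroblasts and meninges were higher than elsewhere but mostly low in level. Of 38 in the tables, 19 were detected, 19 were at 0, 15 reached 10 CPM and 13 of these were enriched (86.7%). Over all genes, 44.7% were detected and 20.1% of those at 10 CPM or more were enriched. On the deposited scale, with the prior count left in, 0 of these markers passed, beside 9 genes of any kind and 5 plasma protein genes. The markers summed to 3319 CPM, against 76.6 to 730 CPM (cluster 7) in the others, and most of it came from SLC6A13 and slc13a4. pdgfra, the receptor that marks fibroblasts and oligodendrocyte precursors, stood at 257 CPM, 33.6 times the mean of the others. The small proteoglycan biglycan (bgnb) stood at 232 CPM, 36.7 times, slc47a1 at 173 CPM, 31.0 times, and the basement membrane gene NID1 at 159 CPM, 32.5 times. The mesenchymal regulators tbx18 (24.4 CPM, 2.67 UMIs) and foxc1a (18.9 CPM, 2.07 UMIs) rested on few molecules, whereas tbx15 stood at 168 CPM, 32.3 times the mean of the others. Genes that define meningeal or other fibroblasts in mammals were at 0: lum, fmoda, ogna, fbln1, COL6A1, COL6A2, COL6A3, aldh1a2, foxd1, tcf21, twist1b, cyp1b1, ptgdsa, cldn11a and cldn11b. dcn had 2.03 UMIs and col1a1a had 2.41 UMIs. A count of 0 allows up to 27.4 CPM, which is above the levels of tbx18 and foxc1a.

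The working name "meningeal fibroblast-like, plasma-protein" was therefore only partly borne out. Of the 10 genes with the highest ratios, 1 was in the fibroblast and meningeal list (SLC6A13) and 4 were plasma protein genes. In the list of barrier and choroid solute carriers were 2, slc5a5 and again SLC6A13, and 1 was in the hepatocyte list (SLC10A1). slc22a6l, also among the 10, was not counted. The fibroblast and barrier lists both hold slc22a6, but symbols were matched only up to a final a or b. The nuclei are called cluster 13 throughout and are described by their plasma carrier and solute carrier genes, with no cell type assigned.

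**Figure D2:**
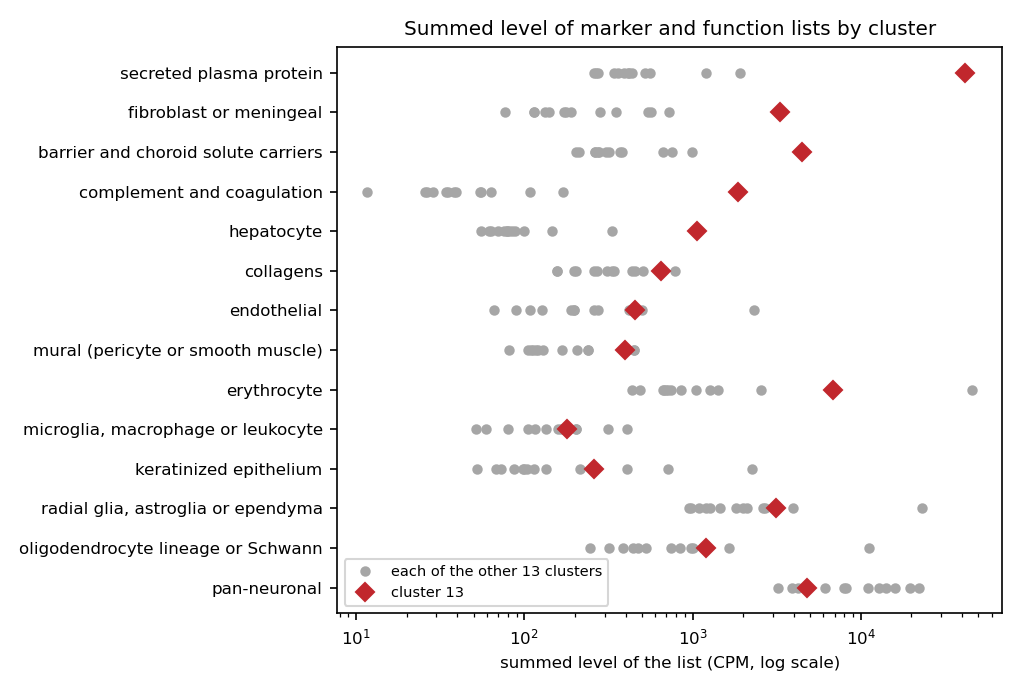
Summed level of 14 marker and function lists (rows) in each cluster, in CPM on a log axis; the diamond is cluster 13 and each dot is 1 of the other 13 clusters. Cluster 13 is the highest for plasma proteins (41970 CPM), fibroblast or meningeal markers, solute carriers, complement and coagulation, and hepatocyte markers, and lies among the others for the remaining lists.

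Matrix genes gave a mixed picture. Over all genes, 44.7% were detected and 20.1% of those at 10 CPM or more were enriched. Of 29 collagen genes in the tables, 11 were detected, 9 reached 10 CPM and 7 of these were enriched (77.8%). Their sum was 651 CPM, which cluster 7 exceeded (782 CPM). COL12A1 stood at 116 CPM, COL5A1 at 105 CPM, and col1a2, a chain of the main fibrillar collagen, at 105 CPM, below its 243 CPM in cluster 7. Of 38 proteoglycan and matrix glycoprotein genes, 18 were detected, 15 reached 10 CPM and 13 of these were enriched (86.7%). Their sum was 1731 CPM, against at most 1188 CPM (cluster 9). HSPG2, which encodes the basement membrane proteoglycan perlecan, stood at 381 CPM, 12.4 times the mean of the others, and the microfibril gene FBN1 at 73.7 CPM, 14.8 times. sparc, a collagen-binding glycoprotein, stood at 129 CPM, 4.20 times the mean of the others. Of 21 matrix remodelling genes, 14 were detected, 9 reached 10 CPM and 7 of these were enriched (77.8%). Among them was the membrane metalloproteinase mmp14a at 45.8 CPM, from 5.02 UMIs.

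Genes of transport and of plasma cascades were enriched in part, beside 20.1% of all genes at 10 CPM or more. All 6 detected members of the complement and coagulation list were enriched, of 24 in the tables, and c7b gave most of their sum of 1858 CPM. Another was cfd, with 7.05 UMIs and a higher level in cluster 7 (70.4 CPM). The terminal complement component c6 (26.0 CPM, 2.84 UMIs) and prothrombin f2 (16.3 CPM, 1.78 UMIs) were highest in cluster 13. The transglutaminase gene f13a1b (19.6 CPM, 2.14 UMIs) was higher in cluster 8 (28.7 CPM). The protease inhibitor gene serpine2 (11.9 CPM, 1.30 UMIs) was higher in cluster 12 (32.4 CPM). Of 28 barrier and choroid solute carriers, 17 were detected, 10 reached 10 CPM and 8 were enriched, with a sum of 4501 CPM against at most 993 CPM (cluster 8). The glucose carrier slc2a1a, the thyroid hormone carrier slco1c1 and the efflux pump abcb4 of the endothelial barrier were at 0. Of 19 iron and copper genes, 13 were detected, 11 reached 10 CPM and 5 of these were enriched (45.5%), tfa by far the highest. In the retinoid list 8 of 22 genes were detected and rbp4 was the 1 enriched, while the retinoic acid synthase aldh1a2 and the degrading enzymes cyp26a1, cyp26b1 and cyp26c1 were at 0.

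In the growth factor list 29 of 60 genes were detected, 23 reached 10 CPM and 11 of these were enriched (47.8%). Among them were the TGF-beta co-receptor tgfbr3 (190 CPM, 7.01 times the mean of the others) and bmp7b (126 CPM, 7.87 times). bmp4 (44.2 CPM, 17.9 times) and tgfb1a (36.2 CPM), also enriched, rested on only 4.84 and 3.96 UMIs. In the list of connective tissue transcription factors 32 of 59 were detected, and the 6 enriched are 20.7% of those at 10 CPM or more, close to the 20.1% of all genes. In the corticosteroid response list 14 of 15 were detected and 1 was enriched, TSC22D3, a glucocorticoid-induced leucine zipper gene, at 1662 CPM and 13.2 times the mean of the others. Cytosolic ribosomal protein genes were all detected (72 of 72) and 1 was enriched.

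The remaining cell type lists had summed levels that at least 1 other cluster exceeded, although some single endothelial and mural markers were highest in cluster 13. The erythrocyte list summed to 6860 CPM, second to cluster 8 (45755 CPM), with 6 of 8 genes detected and 0 enriched. The pan-neuronal list summed to 4770 CPM, within the 3242 to 22321 CPM of the others, with 17 of 18 detected and 0 enriched. Radial glial and ependymal markers summed to 3140 CPM, against 23153 CPM in cluster 9, and oligodendrocyte or Schwann markers to 1205 CPM, against 11276 CPM in cluster 6. In the latter list pdgfra was the 1 enriched gene. Endothelial markers summed to 458 CPM, against 2316 CPM in cluster 8. Of the 11 at 10 CPM or more, 6 were enriched (54.5%, beside 20.1% of all genes). The scavenger receptor gene stab1 (92.9 CPM, against at most 41.5 CPM), plvapb and ramp2 (59.3 CPM, against at most 51.2 CPM) were higher than in any other cluster, while kdrl, cdh5 and tie1 were highest in cluster 8. Mural markers summed to 398 CPM, against 449 CPM in cluster 9, and 4 of the 6 at 10 CPM or more were enriched (66.7%). Within the mural list kcnj8 (48.9 CPM from 5.35 UMIs, 21.8 times the mean of the others) and abcc9 (229 CPM, 7.33 times) were enriched. They encode the 2 parts of a potassium channel of pericytes. Also enriched were MYLK (33.5 CPM) and rgs5a (25.9 CPM), which were higher in cluster 8 (38.8 and 58.8 CPM). pdgfrb and acta2 were at 0. Of 11 microglial and leukocyte markers 3 were detected and 0 enriched, and csf1ra, p2ry12 and lcp1 were at 0. The part that RNA or nuclei of these other types take in cluster 13 was not tested.

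Over the 7026 genes detected in all clusters, the levels of cluster 13 followed most closely those of clusters 8 (Spearman 0.756), 7 (0.749) and 9 (0.728), and least those of cluster 12 (0.615). Over all 24365 genes the order was another one, with clusters 8 (0.780), 2 (0.778) and 9 (0.777) first and cluster 7 at 0.761. The correlations run across genes, which are not independent replicates, and the clusters share libraries.

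The comparison of the lineages gave no call in cluster 13. Of 24365 genes, 0 (0%) in the authors' deposited table had an adjusted p under 0.05, and the smallest adjusted p was 1. Unadjusted p-values under 0.05 in the authors' deposited table were found for 102 genes (0.419% of those tested and 0.937% of the 10888 detected). Of these, 43 were higher in the BaP lineage (0.176%) and 59 lower (0.242%). Without variation beyond counting, an unadjusted p under 0.05 takes at least 3 UMIs if all are in control-lineage nuclei. If all are in BaP-lineage nuclei it takes at least 17, so the counts in each direction are not alike. The authors' deposited tables hold 2 clusters with no called gene, cluster 13 included, and the remaining clusters had between 1 and 179. Nuclei, not fish, appear to be the replicates behind these p-values, so they do not carry the spread between the 3 fish of a lineage.

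The size of the cluster sets what this comparison can show. With 14 and 55 nuclei, a gene found in a single control-lineage nucleus has p = 0.406 in the authors' deposited table, and a gene found in a single BaP-lineage nucleus has p = 1. In that table p was 1 for 19519 genes, of which 6042 were detected. To pass the adjustment on its own, a gene would need a p-value of at most 2.05e-06. Without any variation beyond counting, that takes at least 9 UMIs with all of them in control-lineage nuclei, or at least 61 with all of them in BaP-lineage nuclei. At least 61 UMIs were present for 119 genes, 1.09% of those detected, and at least 9 for 1816. Fewer than 5 UMIs were behind 7209 detected genes (66.2%), and 3183 had a single UMI. Detected genes with fewer than 61 UMIs could not pass toward the BaP lineage on their own. The adjustment eases that limit where several genes have small p-values together.

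**Figure D3:**
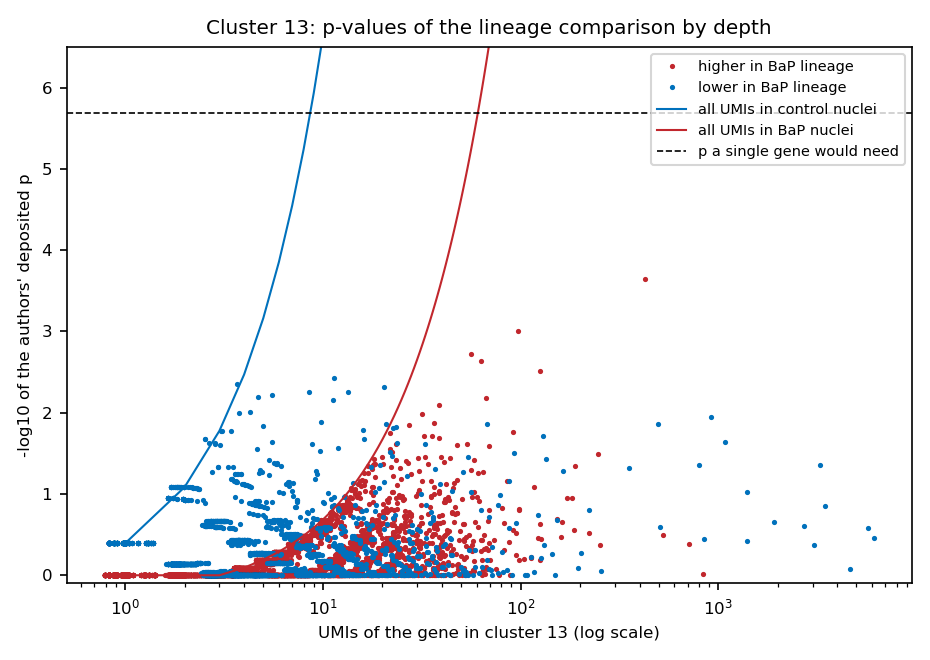
Size of the authors' deposited p-value in the lineage comparison (vertical axis, -log10) against the UMIs of each detected gene in cluster 13 (log axis); the curves give the p of a gene with all UMIs in 1 lineage and no variation beyond counting, and the dashed line marks 2.05e-06, the p that a single gene would need. All genes lie below the dashed line, and TCF4 comes nearest to it (2.27e-04).

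The deposited fold changes lean toward the BaP lineage, whereas the median over genes counted in both lineages, with the prior counts taken out, was negative. In the authors' deposited table the median log2 fold change was 0.19 over detected genes and 0.34 over the 5444 in the upper part of mean expression, of which 63.4% were higher in the BaP lineage. Of these 5444 genes, 1864 had 0 UMIs, to the nearest whole number, in the 14 control-lineage nuclei. A gene with a single UMI in a BaP-lineage nucleus has 0.19 in that table, which is also the median over detected genes. With the prior counts taken out, the median was -0.25 over the 1013 genes with at least 3 UMIs, to the nearest whole number, in each lineage. That limit is harder to reach in 14 nuclei than in 55, and it drops genes with few or no control-lineage UMIs. The medians thus cover different genes, and the part that the prior counts alone take in the change was not tested.

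The 5 leading plasma carriers were lower in BaP-lineage nuclei, and none passed the adjustment. For ahsg2 the level was 19240 CPM in control-lineage nuclei (384 UMIs) and 11335 CPM in BaP-lineage nuclei (1016 UMIs). The authors' deposited table gives it a log2 fold change of -0.69 with p = 0.0953, before adjustment. For tfa, with 293 and 625 UMIs, the authors' deposited table gives -0.99 (unadjusted p = 0.0112), and for apoa2, with 351 and 734 UMIs, -1.02 (unadjusted p = 0.0230). For rbp4, with 105 and 247 UMIs, the authors' deposited table gives -0.84 (unadjusted p = 0.0485), and for apoa1b, with 237 and 565 UMIs, -0.83 (unadjusted p = 0.0438). Summed over the 5 genes, a control-lineage nucleus held 97.8 and a BaP-lineage nucleus 58.0 UMIs on average, or 6.85% and 3.55% of all UMIs. A count of 4 of 5 genes with p under 0.05 stands beside 0.242% of all genes tested in that direction. Most of those genes had far fewer UMIs, so the shares are not alike in depth. In the upper part of mean expression it was 56 of 5444 genes. Among other highly counted genes it was 3 of 13 mitochondrially encoded and 4 of 72 ribosomal protein genes, with 0 in the opposite direction for both. It cannot be read as 4 separate observations, because these 5 genes were singled out with their values known and come from the same nuclei. The whole list of 10 detected plasma genes had a median log2 fold change of -0.69 in the authors' deposited table, with 7 lower and 3 higher. In the other 13 clusters the authors' deposited tables give ahsg2 log2 fold changes from -0.41 to 0.90, of which 5 were negative and 8 positive. None of the 5 genes was called in any other cluster.

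The transporters had fold changes of mixed size and sign. For slc13a4 the level was 182 CPM in control-lineage nuclei (3.63 UMIs) and 1044 CPM in BaP-lineage nuclei (93.6 UMIs), a log2 fold change of 2.16 in the authors' deposited table with unadjusted p = 9.82e-04 and adjusted p = 1. slc5a5, with 29.9 and 191 UMIs, has 0.56 (unadjusted p = 0.299) in the authors' deposited table. SLC6A13, with 20.5 and 87.0 UMIs, has -0.01 (unadjusted p = 1) in the authors' deposited table. slc16a4 had 1.00 and 40.2 UMIs, and the authors' deposited table gives it 2.06 (unadjusted p = 0.0410). Over the 17 detected barrier and choroid solute carriers the median in the authors' deposited table was 0.19, the same as over all detected genes, with 13 higher and 4 lower. The complement gene c7b, with 18.7 and 170 UMIs, has 1.02 (unadjusted p = 0.0448) in the authors' deposited table. Whether the plasma carriers and the transporters differ in their lineage effect was not tested.

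**Figure D4:**
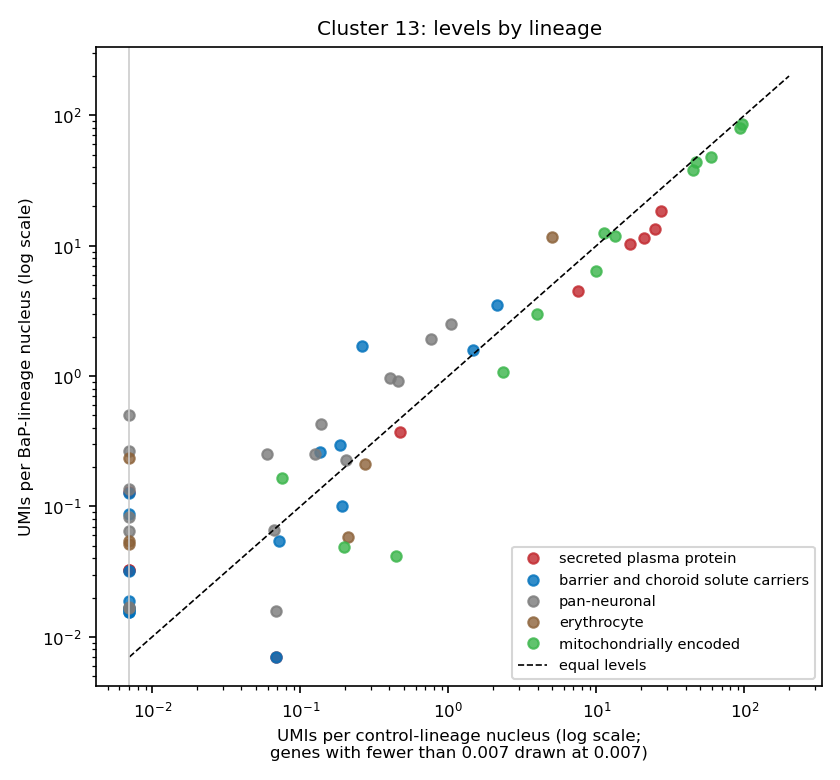
Mean UMIs per BaP-lineage nucleus against mean UMIs per control-lineage nucleus (both log axes) for the genes of 5 lists in cluster 13; the dashed line marks equal levels, and genes under 0.007 are drawn at 0.007. The 5 leading plasma protein genes lie below the line (97.8 and 58.0 UMIs per nucleus in sum), most pan-neuronal genes above it.

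Beside these genes, markers of other cell types differed in level between the lineages, also without a call. Pan-neuronal genes summed to 3.32 UMIs per control-lineage and 8.65 per BaP-lineage nucleus, with 15 of 17 detected members higher and a median log2 fold change of 0.76 in the authors' deposited table. Of all detected genes, 7694 of 10888 were higher there. Erythrocyte genes summed to 5.51 and 12.3 UMIs per nucleus, mostly from the haemoglobin gene hbbe2 (70.4 and 641 UMIs in all). Of 6 detected members 4 were higher, and their median of 0.51 in the authors' deposited table turned to -0.51 with the prior counts taken out, over the 3 members with at least 3 UMIs in each lineage. Oligodendrocyte and Schwann markers went the other way, with 2.98 and 1.65 UMIs per nucleus and 11 of 14 detected members lower (median -0.72 in the authors' deposited table). Mitochondrially encoded genes gave 384 and 331 UMIs per nucleus, 26.9% and 20.3% of the UMIs, with 11 of 13 lower and a median of -0.36 in the authors' deposited table. Ribosomal protein genes stood at 54.7 and 55.1 UMIs per nucleus. None of these genes was called, and the part that other cell types take in the lineage differences of cluster 13 was not tested.

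The smallest unadjusted p-values toward the BaP lineage were led by TCF4, with 30.0 and 398 UMIs, a log2 fold change of 1.58 and p = 2.27e-04 in the authors' deposited table. TCF4 was positive in all 13 other clusters (0.24 to 1.11) and called in 1 of them, per the authors' deposited tables. slc13a4 came second. The bicarbonate transporter gene slc4a4a, with 6.81 and 118 UMIs, has 1.80 (unadjusted p = 0.00310) in the authors' deposited table. INPP5A (an inositol phosphate phosphatase), cacna1ab (a calcium channel subunit), NTRK3 (a neurotrophin receptor), LINGO1, SGCZ, CSPG5 and PTPRD completed the first 10 with a symbol. LINGO1 had 31.9 UMIs and SGCZ 36.3 UMIs, all in BaP-lineage nuclei.

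Toward the control lineage the symbols with the smallest p-values included rab14, ND6, hgd, fstl4, tfa, ND2, atp5f1b and mt2. rab14 rested on 3.76 UMIs in control-lineage nuclei and 0 in BaP-lineage nuclei (log2 fold change -1.74, unadjusted p = 0.00440 in the authors' deposited table). hgd, an enzyme of tyrosine breakdown, had 7.58 and 5.80 UMIs (-1.62, unadjusted p = 0.00553 in the authors' deposited table). The metallothionein gene mt2 had 26.6 and 41.0 UMIs, with -1.33 (unadjusted p = 0.0139) in the authors' deposited table. ND2, a mitochondrially encoded subunit of complex I, had -0.74 (unadjusted p = 0.0139) in the authors' deposited table and was called lower in 10 of the 13 other clusters.

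Genes of the aryl hydrocarbon receptor pathway were close to the limit of detection. Of 10 in the tables, 6 were detected and 4 were at 0: cyp1b1, cyp1c2, cyp1d1 and nqo1, all known targets of the receptor or their relatives. The list summed to 248 CPM, the highest of all clusters, against 124 to 187 CPM in the others. Most of that sum came from TIPARP (96.2 CPM) and aip (75.0 CPM). Each was higher in another cluster, TIPARP in cluster 4 (119 CPM) and aip in cluster 12 (78.2 CPM). Of the 6 detected genes, 2 were enriched (33.3%, beside 20.1% of all genes): AIPL1 at 19.9 CPM from 2.18 UMIs, and cyp1a at 16.2 CPM. The level of cyp1a was below its 47.9 CPM in cluster 7. cyp1a, its classic target, had 1.77 UMIs, all in BaP-lineage nuclei, and p = 1 in the authors' deposited table. TIPARP, another target, had 10.6 UMIs in BaP-lineage and 0 in control-lineage nuclei, with a log2 fold change of 1.34 and unadjusted p = 0.325 in the authors' deposited table. The receptor gene ahr1b had 1.42 UMIs, its partner arnt 3.08 UMIs and the chaperone gene aip 8.21 UMIs in all. None of these genes had the 61 UMIs that a gene would need to pass toward the BaP lineage on its own.

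Of 3 genes called in several other clusters, none was called here. fkbp5, a corticosteroid-induced co-chaperone, was called higher in 6 other clusters, while in cluster 13 it had 12.7 and 62.4 UMIs and 0.18 (unadjusted p = 0.828) in the authors' deposited table. NELL1 was called higher in 5 others and has 1.22 (unadjusted p = 0.175) here in the authors' deposited table. PNPLA6 was called lower in 6 others and has 1.41 (unadjusted p = 0.0320) here in the authors' deposited table, with 19.1 and 228 UMIs. Whether cluster 13 differs from those clusters was not tested.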

How the data were processed

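Single-nucleus libraries were made from whole brains of 6 fish with a droplet 3' protocol, per the labels' protocols, and processed with Cell Ranger, per the submitters' processing notes. Its version, the clustering, the filters on nuclei and the handling of doublets and free RNA are not stated in the sources used here. The authors deposited 14 tables, each with the log2 fold change and log2 mean CPM of 24365 genes, and with p-values and adjusted p-values, per the file headers. Group codes in the table names put the BaP lineage over the control lineage in the fold change. Of the genes, 10340 have no symbol. The gene table at hand is of another assembly than the authors' and holds no sequence, so neither coordinates nor sequences are given.

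Levels and nuclei were worked out from the authors' deposited log2 values and p-values under the defaults of an exact negative-binomial test run on nuclei, with prior counts of 2 behind the mean level and 0.125 behind the fold change. No source states that test. In cluster 13 the genes with a single count show 14 control-lineage and 54 BaP-lineage distinct mean levels, beside the 14 and 55 nuclei worked out. Levels were scaled to the same total over all genes in each cluster, because in cluster 13 their sum was 113% of the mean depth, so UMIs are approximate and not whole. On simulated tables of 24365 genes modelled on cluster 13, both numbers of nuclei were recovered (14 and 55), and the median error was 1.76% over 718 genes with 20 UMIs or more. For 200 of 200 changed genes the direction worked out was that of the simulated counts. It was not set against the change put in. The simulation made the same assumptions, so its error need not hold for the deposited values.

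The members and gene lists were chosen with earlier results of these data known. Named genes are the 4 given markers (ahsg2, apoa1b, apoa2, tfa), the 25 symbols with the highest ratio at 50 CPM or more, the 10 highest symbols and up to 8 members of each list. For the lineages they are the 10 symbols with the smallest p-values in each direction, the aryl hydrocarbon receptor and mitochondrial genes, fkbp5, NELL1 and PNPLA6. Genes without a symbol were passed over in that order. Values are printed for those the results turn on, and a few genes are not reported here. Other list members named, and genes named as being at 0, were chosen after their values were seen. List symbols were matched in any case, allowing for a final a or b, and 2 wrong matches were removed after the values were seen. Calls are those with an adjusted p under 0.05 in the deposited table, with no further test. Alternatives varied the reference, minimum, fold, prior counts, scaling and adjustment. Calculations used Python 3.11, numpy 2.4.6, pandas 2.3.3 and scipy 1.17.1, and plots matplotlib 3.10.9.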

Additional observations from a re-analysis of the deposited data

How the results depend on the processing

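The count of enriched genes depended on its limits. The 1615 genes became 2463 with no minimum level or with 5 CPM, 1054 with 20 CPM, 660 at a fold of 4, 271 at a fold of 10, 409 against the highest of the other clusters and 2437 without mitochondrially encoded genes. The minimum of 10 CPM lies close to the 9.13 CPM of 1 UMI. With the prior counts left in, as deposited, 9 genes passed, with 5 plasma protein genes in place of 9 and 0 fibroblast or meningeal markers in place of 13. Under the other settings tried, the plasma protein genes enriched numbered 7 to 9 and the fibroblast or meningeal markers 9 to 15. Lineage calls were 0 with adjusted p under 0.1, when adjusted over detected genes or over the more highly expressed part of them, and with a minimum log2 fold change of 1, and 102 without adjustment. Relative to the upper median of 0.34, list medians changed sign in 13 of 24 lists. With prior counts taken out, only members with at least 3 UMIs in each lineage were kept. These were 7 of 19 detected fibroblast or meningeal markers and 3 of 6 erythrocyte markers. Medians changed sign in 5 of 14 lists, fibroblast or meningeal markers (0.19 to -0.68) and erythrocyte markers (0.51 to -0.51) among them. The median of plasma protein genes stayed negative (-0.85). The part that the smaller set of genes takes in these changes was not tested. Under the same setting the median over all 1013 genes with at least 3 UMIs in each lineage was -0.25.

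No paired analysis was possible because the tables hold no value for a single fish, and for the same reason no fish could be left out in turn. Dividing by mean depth and counting distinct mean levels were added after the data were seen. Nuclei derived from fold changes alone gave 13.1 control-lineage nuclei, beside 14. Fewer than 5 UMIs were behind 66.2% of detected genes. Depth per fish is unknown.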
